A study of Mus musculus with 6 samples.

Results

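The genes of fatty acid beta-oxidation were examined in metaphase II (MII) oocytes of reproductively old mice. The members were chosen by name and comprised 38 genes of the 60193 listed in the expression table, of which 53700 carried Ensembl identifiers. All 6 samples were MII oocytes of the ICR strain, an outbred mouse, and the donors were 42 to 45 weeks old. In the 3 IVM samples, immature oocytes freed of their cumulus cells had matured in culture in M16 medium after PMSG priming of the donors. In the 3 IVO samples, oocytes had matured in the animal after PMSG and hCG and were taken from the oviduct, and hyaluronidase had removed their cumulus cells. Each sample was a pool of oocytes from several mice, so differences between single oocytes or single mice were not measured. The libraries were full-length cDNA amplified from oligo(dT)-primed RNA. With such pools, less RNA per oocyte, a shorter poly(A) tail and fewer intact oocytes cannot be told apart.

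Beta-oxidation breaks fatty acids down to acetyl-CoA inside mitochondria. Acyl-CoA synthetases activate the fatty acid, carnitine palmitoyltransferases carry long acyl chains across the mitochondrial membranes, and a cycle of dehydrogenation, hydration, a further oxidation and thiolysis shortens the chain. Electrons from the acyl-CoA dehydrogenases pass through the electron transfer flavoprotein and its ubiquinone oxidoreductase to the respiratory chain. Peroxisomes hold a parallel set of enzymes for very long and branched chains. In the mouse, oxidation of fatty acids in the oocyte and its cumulus cells is known to accompany the resumption of meiosis. An MII oocyte makes almost no new transcripts, and its mRNA is a store laid down during growth that is translated, kept or degraded.

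The beta-oxidation transcripts of the MII oocyte were concentrated in a few genes. Levels are given as FPKM, the fragments on a gene relative to the length of its transcript and the size of the library, which can be compared between genes. Acat1, Acsl3, Etfdh, Etfa and Acadm had the highest means over the 6 samples, and 4 members exceeded a mean of 100 FPKM. A mean of at least 10 FPKM was reached by 11 members and a mean of at least 1 FPKM by 23. The other 15 members had means from 0 to 0.870 FPKM and were not tested, 8 of them with a mean under 0.1 FPKM. The 5 highest members together took 84% to 87.4% of the summed FPKM of the 38 genes in IVM samples and 80.1% to 85.6% in IVO samples. The depth inferred from the steps between low values was 16500000 to 19100000 fragments in the IVM and 17800000 to 18200000 in the IVO group. At that depth, 3 fragments on a transcript of 2000 bases are worth 0.0870 to 0.102 FPKM, a floor that covers counting error only.

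**Figure D1:**
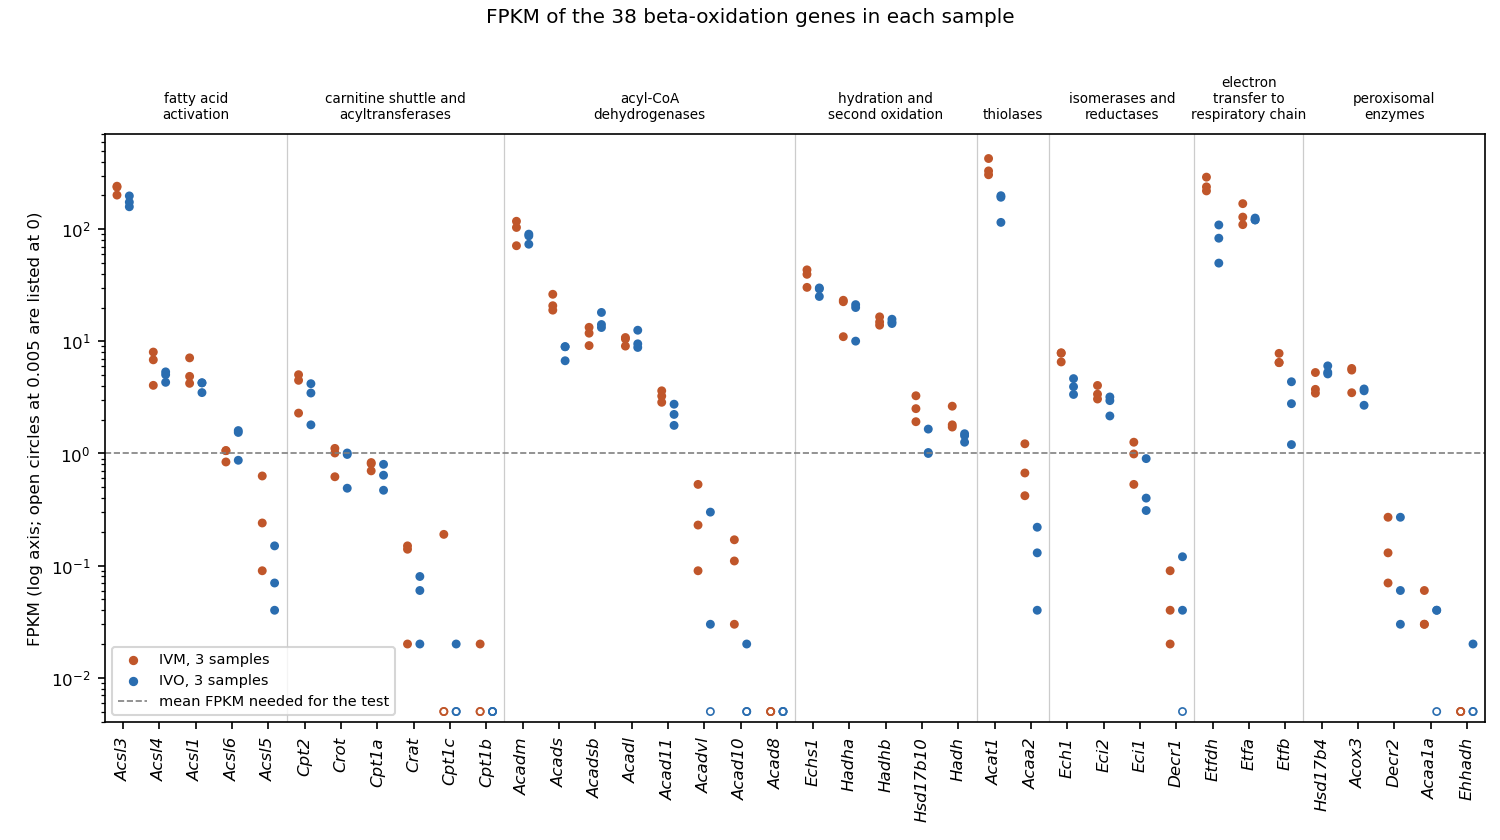
FPKM of the 38 beta-oxidation genes in each of the 6 samples on a log axis, grouped by role and ordered by mean within a role, with open circles for values listed at 0. Acat1, Acsl3, Etfdh, Etfa and Acadm stand above the rest, and 15 genes have a mean under the dashed line at 1 FPKM.

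The summed FPKM of the 38 genes was 1364, 1197 and 1144 FPKM in IVM 1 to 3 and 724.0, 734.7 and 838.1 in IVO 1 to 3. The groups did not overlap, with means of 1235 ± 114 FPKM in IVM and 765.6 ± 63.0 FPKM in IVO samples (SD, n = 3). The exact two-sided permutation test gave p = 0.1, the smallest value that 3 samples against 3 allow. The sum over all listed genes was also lower in IVO samples, 1560813 to 1643682 against 1826738 to 2111776 FPKM in IVM samples. As a share of that sum, the 38 genes took 0.0567% to 0.0650% in IVM samples and 0.0464% to 0.0510% in IVO samples, again without overlap (exact permutation p = 0.1). Acat1 and Etfdh had the largest differences in mean FPKM among the 38 genes.

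The difference between the groups was tested with limma for the 18818 genes whose mean reached 1 FPKM, as IVO minus IVM of log2(FPKM + 1). A gene was called when |log2FC| was at least 1 and the p adjusted by Benjamini-Hochberg was under 0.05. This scale understates the change of genes with a low FPKM. Of the 23 members tested, 4 were called lower in the IVO group, namely Etfdh, Acads, Etfb and Acat1 (17.4%, against 17.9% of all tested genes). None was called higher (0.606% of all tested genes), and none had a log2FC above 0 at an adjusted limma p under 0.05 (1.87%) or an unadjusted one (5.56%). At an unadjusted p under 0.05, 6 of the 23 were lower (26.1%, against 31.4% of all tested genes). Without the fold threshold, Ech1 joined the lower genes, which made 5 of 23 members (21.7%, against 21.5% of all tested genes). The share of members called was therefore near the background, and the calls are results about these single genes. In 10 of the 23 members each IVO sample lay below each IVM sample (43.5%, against 32.6% of all tested genes), and in none did each IVO sample lie above (9.62% of all tested genes).

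The median log2FC of the 23 tested members was -0.33, beside -0.30 for all tested genes. With median-ratio scaling of the libraries both medians were -0.04, and with quantile normalization they were 0.15 for the members and 0.17 for all tested genes. The medians of the members and of all 18818 tested genes lay close to each other under each scaling. Only 10344 of these genes have a canonical coding transcript, and all 23 tested members are among them. Split by a sequence near the transcript end that is described below, these coding genes had median log2FC of -0.02 and -0.20. The -0.33 of the members was lower than both, and this difference was not tested. The closeness therefore holds against all tested genes and not against coding genes alone. On the deposited scale 19 members had a log2FC below 0, which is 82.6% beside 66.0% of all tested genes. Under median-ratio scaling the called members were Etfdh and Acads (11.3% of all tested genes were then called lower), and under quantile normalization Etfdh alone (8.40%). No member was called higher under either scaling (2.05% and 5.83% of all tested genes).

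**Figure D2:**
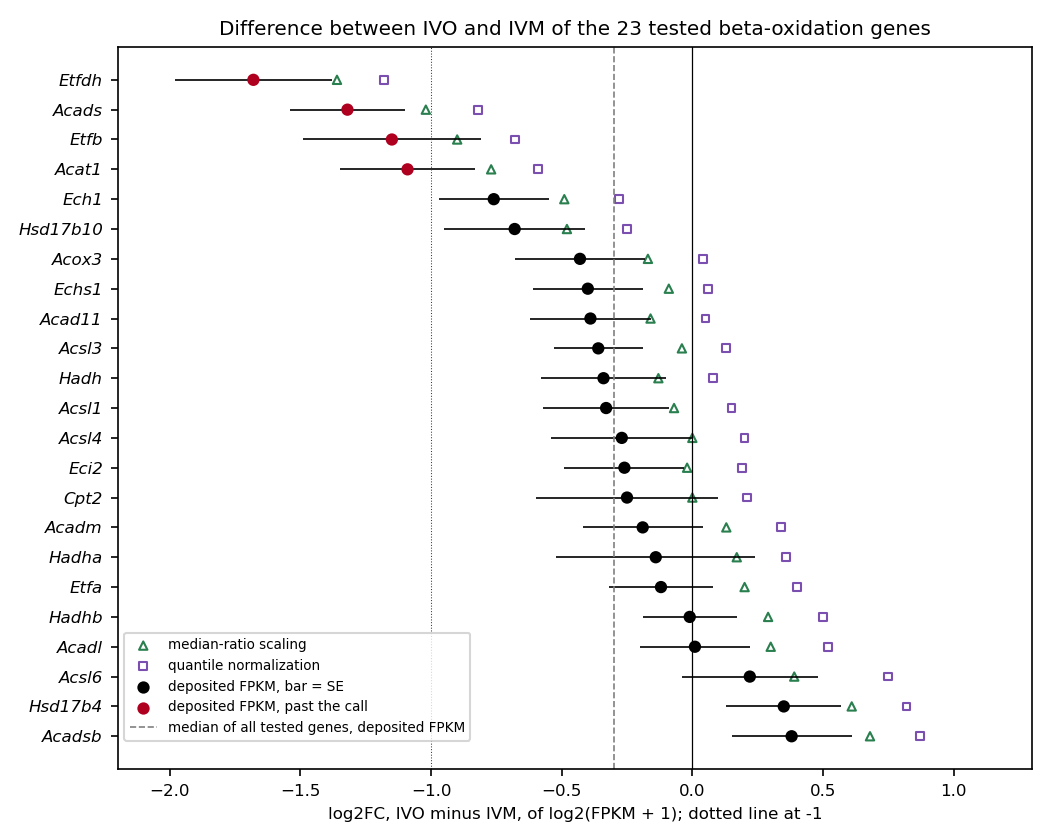
Log2FC between IVO and IVM of the 23 tested beta-oxidation genes on the deposited scale (filled circles with SE, 3 samples per group, called genes in red), with median-ratio scaling (triangles) and with quantile normalization (squares). Etfdh and Acads lie farthest to the left, and the dashed line is the median of all tested genes, -0.30.

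The electron transfer step gave the member with the most negative log2FC. Etfdh (ENSMUSG00000027809, chr3:79511086-79536807 of GRCm39, minus strand) encodes the membrane oxidoreductase that hands electrons from the flavoprotein to ubiquinone. Its FPKM values were 291, 238 and 219 in IVM 1 to 3 and 83.1, 49.8 and 109 in IVO 1 to 3. All IVO samples lay below all IVM samples, and IVO 2 was the lowest. The mean fell from 249.6 ± 37.1 to 80.6 ± 29.7 FPKM (SD, n = 3), with a log2FC of -1.68 (SE 0.30, adjusted p = 0.00896). The inferred number of fragments behind these values was 9075 to 10377 in the IVM and 1888 to 4181 in the IVO group. Etfdh was called in each of the 6 fits that left out a sample, with a log2FC from -1.93 to -1.37. With median-ratio scaling its log2FC was -1.36 (adjusted p = 0.0267). In the GENCODE annotation of GRCm39, 7.0% of its exon bases also belong to exons of Ppid on the opposite strand, and the library kit does not mark strand. Ppid, a cyclophilin gene, stood at 18.3 to 24.3 FPKM in the IVM and 34.7 to 36.9 FPKM in the IVO group, higher in each IVO sample than in each IVM sample.

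Etfa and Etfb encode the alpha and beta subunits of the electron transfer flavoprotein, which form a dimer. Etfb (ENSMUSG00000004610, chr7:43093493-43107224, plus strand) had 6.48, 6.45 and 7.81 FPKM in IVM 1 to 3 and 4.36, 2.78 and 1.20 FPKM in IVO 1 to 3. The groups did not overlap, and the IVO samples differed more among themselves than the IVM samples. Its log2FC was -1.15 (SE 0.34, adjusted p = 0.0492), close to the threshold. Leaving out any sample other than IVO 1 ended this call (log2FC -1.45 to -0.81, adjusted p 0.0303 to 0.136 over the 6 fits), and with median-ratio scaling its log2FC was -0.90 (adjusted p = 0.0943). Only about 14 fragments were behind the value in IVO 3. Etfa had 169, 110 and 128 FPKM in IVM 1 to 3 and 121, 126 and 121 FPKM in IVO 1 to 3, and these ranges overlapped (log2FC -0.12, SE 0.20, adjusted p = 0.702).

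The scaling of a library cancels in the ratio of 2 genes of that library, apart from the pseudocount, and 8 such ratios were compared on log2(FPKM + 0.1). The pseudocount weighs on genes near 0.1 FPKM, and the difference in the log2 ratio of Crat to Crot went from -0.20 to -0.54 without it. The log2 ratio of Etfdh to Etfa was 0.78, 1.12 and 0.78 in IVM 1 to 3 and -0.54, -1.33 and -0.15 in IVO 1 to 3. Etfdh thus exceeded Etfa in each IVM sample and lay under it in each IVO sample, a difference of -1.57 in the mean log2 ratio. The log2 ratio of Etfa to Etfb was 4.68, 4.07 and 4.02 in IVM and 4.76, 5.45 and 6.54 in IVO samples, higher in the IVO group without overlap. For both ratios the exact two-sided permutation test gave p = 0.1, the smallest possible, and 0.4 after Benjamini-Hochberg adjustment over the 8 ratios. The groups overlapped in the other six ratios, which were Hadha to Hadhb, Cpt1a to Cpt2, Crat to Crot, Acsl3 to Acsl4, Acadl to Acadvl and Hsd17b4 to Hadha (adjusted p from 0.6 to 0.9).

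The acyl-CoA dehydrogenases carry out the first oxidation and differ in the chain length they accept. Acads (ENSMUSG00000029545, chr5:115248357-115257405, minus strand), the short-chain enzyme, was the member of this family called lower. Per sample, it had 20.8, 26.3 and 19.0 FPKM in IVM 1 to 3 and 8.97, 8.94 and 6.71 FPKM in IVO 1 to 3. The highest IVO value, 8.97 FPKM, was below the lowest IVM value, 19.0 FPKM, and the means were 22.0 ± 3.80 and 8.21 ± 1.3 FPKM (SD, n = 3). The log2FC was -1.32 (SE 0.22, adjusted p = 0.00724), and Acads was called in each of the 6 fits that left out a sample (log2FC -1.41 to -1.19). With median-ratio scaling the log2FC was -1.02 (adjusted p = 0.0242) and with quantile normalization it was -0.82 (adjusted p = 0.0384).

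Acadm, the medium-chain enzyme, was the most abundant acyl-CoA dehydrogenase. Its FPKM values were 104, 118 and 71.2 in IVM 1 to 3 and 87.2, 73.5 and 90.3 in IVO 1 to 3, and the ranges overlapped (log2FC -0.19, SE 0.23, adjusted p = 0.591). Acadl, the long-chain enzyme, had 9.07 to 10.8 FPKM in the IVM and 8.82 to 12.6 FPKM in the IVO group (log2FC 0.01, SE 0.21). Acadvl, the very-long-chain enzyme, stood at 0.0900 to 0.530 FPKM in IVM samples and at 0 to 0.30 FPKM in IVO samples, below the level needed for a test. The log2 ratio of Acadl to Acadvl was 4.90 ± 0.74 in IVM and 5.89 ± 1.28 in IVO samples (SD, n = 3). This ratio depends on the pseudocount, since Acadvl rests on about 0 to 17 fragments and is listed at 0 in IVO 1. In the annotation, 38.2% of the exon bases of Acadvl also belong to Dvl2 on the opposite strand, which had a mean of 1.98 FPKM. Of these 3 enzymes, Acadm had the highest FPKM and Acadvl the lowest in each of the 6 samples.

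Acadsb, which acts on short branched chains from isoleucine, had the highest log2FC among the members, 0.38 (SE 0.23, adjusted p = 0.270). It stood at 9.16 to 13.3 FPKM in the IVM and 13.3 to 18.1 FPKM in the IVO group. Quantile normalization gave it a log2FC of 0.87 (adjusted p = 0.0277), still under the fold threshold. Acad11 had 2.86 to 3.62 FPKM in the IVM and 1.78 to 2.75 FPKM in the IVO group (log2FC -0.39, adjusted p = 0.269). Acad10 had a mean of 0.0550 FPKM, and Acad8, the isobutyryl-CoA dehydrogenase of valine breakdown, was listed at 0 in each sample. The annotation gives 5.8% of the exon bases of Acad8 also to Thyn1 on the opposite strand, which stood at 20.4 to 33.3 FPKM.

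Thiolases release acetyl-CoA. Acat1 (ENSMUSG00000032047, chr9:53450461-53521731, minus strand), the mitochondrial acetoacetyl-CoA thiolase that also serves isoleucine and ketone body metabolism, had the highest mean of the 38 genes. Per sample, it had 427, 331 and 306 FPKM in IVM 1 to 3 and 115, 193 and 199 FPKM in IVO 1 to 3. The groups did not overlap, and IVO 1 was the lowest. The means were 354.4 ± 63.8 and 168.8 ± 46.7 FPKM (SD, n = 3), with a log2FC of -1.09 (SE 0.26, adjusted p = 0.0238). Over the 6 fits that left out a sample the log2FC ranged from -1.23 to -0.84 and the adjusted p from 0.0313 to 0.0808. The call was lost without IVM 1, IVM 2, IVM 3 or IVO 1. With median-ratio scaling the log2FC was -0.77 (adjusted p = 0.0954). Exons of Npat on the opposite strand share 12.5% of the exon bases of Acat1, and Npat stood at 5.06 to 5.78 FPKM in the IVM and 6.14 to 7.24 FPKM in the IVO group. Acaa2, the mitochondrial thiolase for longer chains, was below the level needed for a test, at 0.420 to 1.22 FPKM in the IVM and 0.0400 to 0.220 FPKM in the IVO group, or about 9 to 31 and 1 to 5 fragments.

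**Figure D3:**
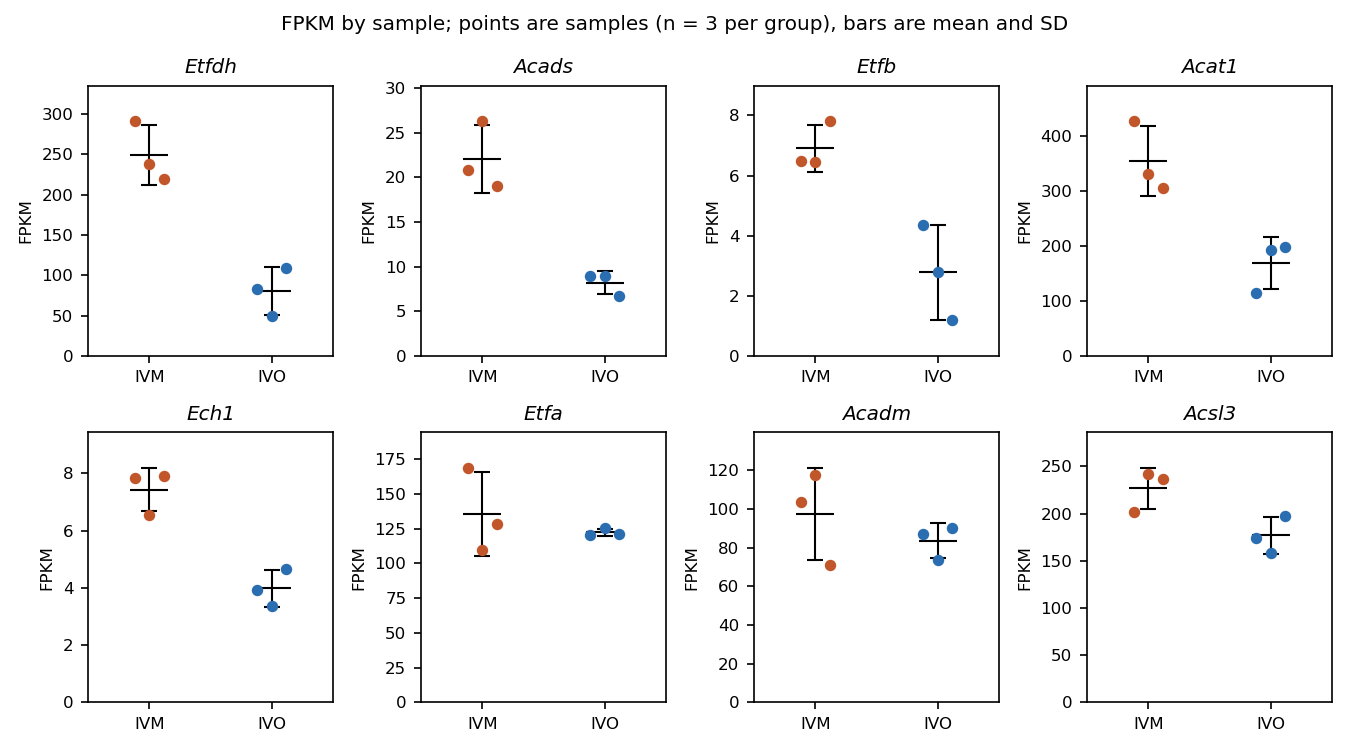
FPKM of 8 beta-oxidation genes in each sample, with the mean and SD of each group (n = 3) and axes that start at 0. The points of the groups are apart in Etfdh, Acads, Etfb, Acat1, Ech1 and Acsl3 and overlap in Etfa and Acadm.

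The steps between the first oxidation and thiolysis had no member called. Hadha and Hadhb encode the alpha and beta subunits of the trifunctional protein, which handles long chains at the inner membrane. Hadhb had a narrow range, at 16.5, 13.9 and 14.9 FPKM in IVM 1 to 3 and 14.9, 15.7 and 14.4 FPKM in IVO 1 to 3 (log2FC -0.01, SE 0.18). Hadha was less even, at 11.0, 22.6 and 23.2 FPKM in IVM 1 to 3 and 20.02, 21.2 and 10.04 FPKM in IVO 1 to 3, with IVM 1 and IVO 3 at about the same low level. Its log2FC was -0.14 with an SE of 0.38, wider than that of any other tested member. Both genes lie head to head on chromosome 5 and share 932 exon bases in the annotation, so part of their fragments cannot be assigned without strand.

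Echs1, the short-chain enoyl-CoA hydratase, was the most abundant gene of these steps. Its FPKM values were 43.4, 30.3 and 39.6 in IVM 1 to 3 and 29.9, 29.3 and 25.1 in IVO 1 to 3. The groups were apart by less than 1 FPKM, and the log2FC was -0.40 (SE 0.21, adjusted p = 0.208). Hsd17b10, a hydroxyacyl-CoA dehydrogenase that is also a subunit of mitochondrial RNase P, had 1.92 to 3.27 FPKM in the IVM and 1.0 to 1.65 FPKM in the IVO group (log2FC -0.68, SE 0.27, adjusted p = 0.110). Its values rest on about 13 to 49 fragments. Hadh, the hydroxyacyl-CoA dehydrogenase for medium and short chains, had 1.72 to 2.64 FPKM in the IVM and 1.26 to 1.5 FPKM in the IVO group (log2FC -0.34, adjusted p = 0.365).

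Auxiliary isomerases and reductases are needed for unsaturated fatty acids. Ech1 (ENSMUSG00000053898, chr7:28524036-28531674, plus strand), a dienoyl-CoA isomerase, had 7.83, 6.55 and 7.91 FPKM in IVM 1 to 3 and 3.94, 3.36 and 4.65 FPKM in IVO 1 to 3. The groups did not overlap, and the log2FC was -0.76 (SE 0.21, adjusted p = 0.0389), under the fold threshold. In each of the 6 fits that left out a sample its adjusted p was above 0.05, from 0.0567 to 0.134, and with median-ratio scaling it was 0.125. Eci2 overlapped between the groups (2.16 to 4.04 FPKM over the 6 samples, log2FC -0.26). Eci1 stood at 0.310 to 1.26 FPKM and Decr1, the mitochondrial dienoyl-CoA reductase, at 0 to 0.120 FPKM.

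Activation of fatty acids was dominated by Acsl3, an acyl-CoA synthetase of the endoplasmic reticulum and lipid droplets. Per sample, it had 201, 242 and 237 FPKM in IVM 1 to 3 and 174, 158 and 198 FPKM in IVO 1 to 3. The groups did not overlap, but the log2FC was -0.36 (SE 0.17, adjusted p = 0.176), with median-ratio scaling it was -0.04, and with quantile normalization it was 0.13. Acsl4, which prefers arachidonate, stood at 4.05 to 8.02 FPKM, Acsl1 at 3.49 to 7.12 FPKM and Acsl6 at 0.840 to 1.6 FPKM over the 6 samples, and the groups overlapped in each. Acsl5 had a mean of 0.203 FPKM and was not tested. Acsl3 exceeded Acsl4 by 5.20 ± 0.62 on the log2 scale in IVM and by 5.15 ± 0.05 in IVO samples (SD, n = 3).

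The carnitine shuttle was represented by low transcripts. Cpt2, the inner membrane enzyme that returns acyl chains to CoA, had 5.04, 2.29 and 4.49 FPKM in IVM 1 to 3 and 4.19, 3.46 and 1.80 FPKM in IVO 1 to 3, and was the single tested member of its role (log2FC -0.25, SE 0.35, adjusted p = 0.647). Cpt1a, the malonyl-CoA-sensitive outer membrane enzyme usually held to control the rate of the pathway, stood at 0.700 to 0.830 FPKM in the IVM and 0.470 to 0.800 FPKM in the IVO group, or about 34 to 65 fragments. Its muscle form Cpt1b reached 0.0200 FPKM in a single sample and its brain form Cpt1c at most 0.190 FPKM. Crot, the peroxisomal carnitine octanoyltransferase, stood at 0.490 to 1.11 FPKM, and Crat, the carnitine acetyltransferase, at 0.0200 to 0.15 FPKM. Cpt1a was below Cpt2 in each sample, with a mean log2 ratio of -2.13 ± 0.69 in IVM and -2.09 ± 0.66 in IVO samples (SD, n = 3).

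Of the peroxisomal enzymes, Hsd17b4 and Acox3 were tested and neither was called. Hsd17b4, the D-bifunctional protein, had 3.45, 3.73 and 5.27 FPKM in IVM 1 to 3 and 5.30, 6.04 and 5.12 FPKM in IVO 1 to 3 (log2FC 0.35, SE 0.22, adjusted p = 0.312). Under quantile normalization its log2FC was 0.82 (adjusted p = 0.0332), under the fold threshold. Acox3, an acyl-CoA oxidase for branched chains, stood at 3.48 to 5.73 FPKM in the IVM and 2.69 to 3.76 FPKM in the IVO group (log2FC -0.43, adjusted p = 0.271). Ehhadh, the L-bifunctional protein, was listed at 0 in 5 samples and at 0.0200 FPKM in IVO 3. Decr2 and the thiolase Acaa1a had means of 0.138 and 0.0333 FPKM.

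The beta-oxidation transcripts were also compared by composition. Etfdh took 19.2% to 21.3% of the summed FPKM of the 38 genes in IVM samples and 6.78% to 13.0% in IVO samples. The share of Acat1 was 26.7% to 31.3% in IVM samples and 15.9% to 26.2% in IVO samples. The shares of Acsl3, Etfa and Acadm were higher in IVO samples, with means of 23.1% against 18.6%, 16.1% against 10.9% and 10.9% against 7.88%. The groups did not overlap in any of these 5 shares, and each gave an exact permutation p of 0.1, the smallest possible, which adjustment over the 5 shares left at 0.1. Shares of 1 sum are not independent, since a smaller share of Etfdh and Acat1 leaves a larger one to the others.

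**Figure D4:**
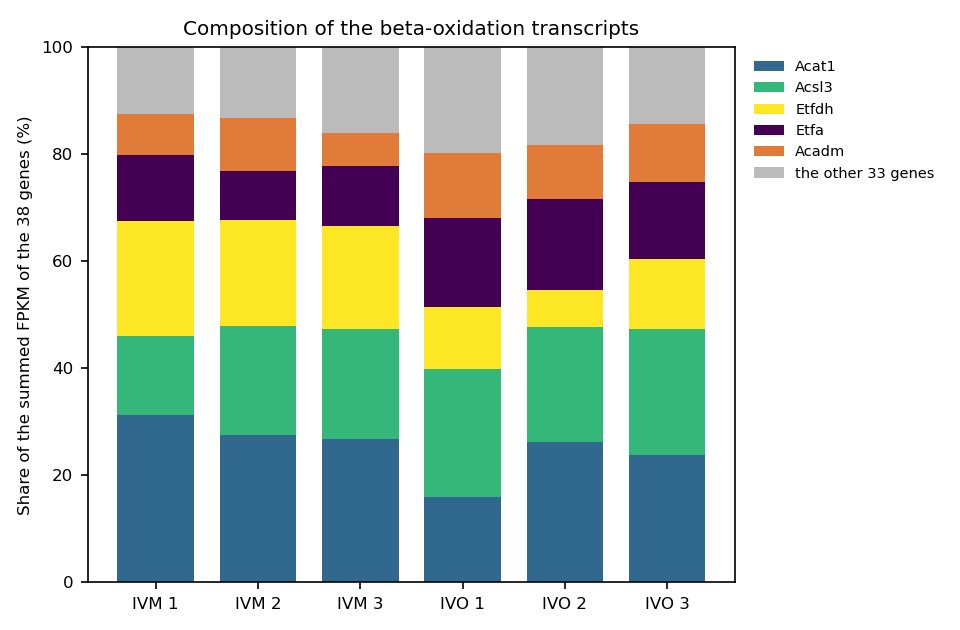
Stacked shares of the summed FPKM of the 38 beta-oxidation genes in each of the 6 samples, for the 5 genes with the highest means and for the other genes together. The band of Etfdh is 19.2% to 21.3% in the IVM and 6.78% to 13.0% in the IVO group.

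Library properties also moved with the groups. The fragment length inferred from the low values was 201 to 217 bases in the IVM and 248 to 264 bases in the IVO group, and its part in the values was not tested. Across the 10344 tested genes with a canonical coding transcript, the median log2FC went from 0.07 in the quartile with the lowest GC content to -0.43 in the quartile with the highest. The canonical transcripts of Acads, Etfb and Ech1 have 60.1%, 57.1% and 54.4% GC, and these are the 3 tested members in the highest quartile. Etfdh and Acat1 have 47.2% and 44.2% GC. The trend of each library against GC content was then removed, over the 10344 genes, of which 14.7% were called lower. In that fit Etfdh (log2FC -1.72), Acads (-1.03) and Acat1 (-1.26) were called and Etfb (-0.90) was not. The median GC content was 48.3% for the 23 tested members and 48.6% for all tested coding genes.

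Markers of other cell types were looked at because cumulus cells were removed in different ways. All 12 oocyte markers were tested, and 5 of them, Zp1, Zp2, Zp3, Nlrp5 and Padi6, were called lower in IVO samples (17.9% of all tested genes were). Dazl was higher in IVO samples without overlap, at 640 to 885 FPKM in IVM and 1156 to 1362 FPKM in IVO samples (log2FC 0.74, adjusted p = 0.0220), and it was called higher with median-ratio scaling (1.06). Oosp1 and Ddx4 had a log2FC of 0.18 and -0.02. Bmp15, Mos, Ooep and Gdf9 were not called and had a log2FC of -0.98, -0.86, -0.85 and -0.39. The median log2FC of the 12 oocyte markers was -0.92, beside -0.30 for all tested genes. Of 18 cumulus and granulosa cell markers, 14 had a mean under 1 FPKM, with Amh listed at 0 in each sample and Foxl2 at most at 0.0200 FPKM. Their summed level was 64.4 to 66.5 FPKM in the IVM and 47.6 to 56.4 FPKM in the IVO group, most of it from Nr5a2, Cyp19a1 and Fshr. Of the 4 tested, Nr5a2 was called lower (log2FC -1.04), a call that held in 4 of the 6 fits that left out a sample and was lost with median-ratio scaling (-0.73, adjusted p = 0.0605). The other three, Fshr, Cyp19a1 and Kitl, had a log2FC of 0.16, 0.18 and 0.22. Without Nr5a2 the summed level was 25.7 to 36.1 FPKM in the IVM and 34.1 to 38.5 FPKM in the IVO group. Among the 14 untested markers, each IVO sample lay above each IVM sample in 4 genes of cumulus expansion and coupling (9.62% of all tested genes did so). The tested genes have a mean of at least 1 FPKM, and the share among genes under that level was not computed. Tnfaip6 was at 0 to 0.140 against 0.340 to 0.490 FPKM and Gja1 at 0.02 to 0.05 against 0.240 to 0.860 FPKM. Has2 was at 0.04 to 0.14 against 0.170 to 0.370 FPKM, and Ptx3 at 0 to 0.03 against 0.07 to 0.170 FPKM. All IVM values of Gja1 and Ptx3 lie under 0.0870 FPKM, the lowest worth of 3 fragments on 2000 bases. The other untested markers overlapped, with lower means in IVO samples in some, such as Inha, and higher ones in others, such as Ptgs2. Of 12 oviduct and blood cell markers, 9 had a mean under 1 FPKM, and their summed level was 8.49 to 11.1 FPKM in the IVM and 9.37 to 17.2 FPKM in the IVO group. The part of these levels in the values of the beta-oxidation genes was not tested.

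The regions around the genes were described from sequence. Stored oocyte mRNAs are often regulated through the cytoplasmic polyadenylation element, a U-rich stretch near the end of the 3′ UTR. Its letters, TTTTAT or TTTTAAT on the transcript strand, were searched in the last 120 bases of the canonical 3′ UTR. They were found in 4 of the 23 tested members (17.4%), beside 21.0% of the 10344 tested coding genes, and in none of the untested members. The 4 genes were Acadm, Acad11, Hadh and Acsl6, none of which was called. The called genes Etfdh, Acads, Etfb and Acat1 thus have no such letters in the bases searched. In Etfb these were only 60, the length of its canonical 3′ UTR. Whether the oocyte uses the canonical transcript ends was not tested. The matches are shown with the element in capitals, 30 bases each from GRCm39, to let the contexts be compared.
Acadm, chr3:153628024-153628053, minus strand: actgaacgagaaTTTTATttgtcttgttta
Acad11, chr9:104004854-104004883, plus strand: ttcttattgtcaTTTTATggtgtgaatacc
Hadh, chr3:131027127-131027156, minus strand: aaaatgaaatcTTTTAATttgtaaacattg
Acsl6, chr11:54255556-54255585, plus strand: aataaagattttTTTTATttctcaaaattg
The match lies 53 bases before the transcript end in Acadm, 59 in Acad11, 78 in Hadh and 20 in Acsl6. The log2FC of these genes was -0.19, -0.39, -0.34 and 0.22 in the same order. Over all tested coding genes the median log2FC was -0.02 for those with the letters and -0.20 for those without. A match is a description and not a site.

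Promoters were searched in the RefSeq table of GRCm38.p6, from 250 bases before to 50 bases after the start, in which 32 of the 38 genes were matched. The nuclear receptor core AGGTCA was found on either strand in 6 of them (18.8%), beside 18.1% of the 27025 genes with a promoter there. These were Cpt1a, Cpt1c, Acsl6, Acadm, Acadvl and Echs1. The direct repeat of this core that binds PPAR factors, AGGTCANAGGTCA, was found in none (0.0481% of the 27025 genes). The ERR element TCAAGGTCA, which contains the same core, was found in Acsl6 alone (0.466% of the 27025 genes).

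The genes around beta-oxidation were described with lists chosen for their function, as counts beside the 17.9% of all tested genes called lower. Of the genes for the disposal of acetyl-CoA and propionyl-CoA, 12 of 17 were tested and 5 were called lower, with a median log2FC of -0.23. Among them were Acss1, the mitochondrial acetate-activating synthetase (log2FC -2.77, 25.8 to 63.5 FPKM in the IVM and 3.49 to 7.23 FPKM in the IVO group), and Mcee, the methylmalonyl-CoA epimerase (-1.54, 83.0 to 120 against 31.5 to 35.1 FPKM). Both were called in the 6 fits that left out a sample and with median-ratio scaling.

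Of the other peroxisomal enzymes and transporters, 12 of 19 were tested and 3 were called lower, with a median of -0.37. These were Scp2, whose longer product is a peroxisomal thiolase (log2FC -2.12), Nudt19, a peroxisomal CoA hydrolase (-2.05), and Abcd4, a relative of the peroxisomal transporters that acts in cobalamin export from lysosomes (-1.17). With median-ratio scaling the log2FC of Abcd4 was -0.89, under the fold threshold, which left 2 of the list called. Fatty acid synthesis, elongation and desaturation had 15 of 23 genes tested and 2 called lower, Fasn, the fatty acid synthase (-2.16), and Tecr, the enoyl-CoA reductase of elongation (-1.37), with a median of -0.34. Of the uptake and carnitine genes, 9 of 22 were tested and Slc27a5, an acyl-CoA synthetase of bile acid and fatty acid uptake, was called lower (-1.61), with a median of 0.11. This call held in 2 of the 6 fits that left out a sample and was lost with median-ratio scaling (adjusted p = 0.0684).

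Among the regulators, 15 of 22 genes were tested and Pparg, a lipid-sensing nuclear receptor, was called lower (log2FC -1.27, 44.3 to 63.1 FPKM in the IVM and 20.5 to 22.6 FPKM in the IVO group), with a median of -0.22. With median-ratio scaling its log2FC was -0.96, under the fold threshold. Of the lipid droplet and lipolysis genes, 11 of 20 were tested and none was called by limma, while 4 had an unadjusted p under 0.05 with a negative log2FC (36.4%, against 31.4% of all tested genes). In none of the 6 lists was a gene called higher (0.606% of all tested genes were). An unadjusted limma p under 0.05 with a positive log2FC was reached by 7 genes in all, beside 5.56% of all tested genes. These were 3 of 15 tested in fatty acid synthesis, 2 of 12 in acetyl-CoA and propionyl-CoA disposal, 1 of 12 among the other peroxisomal genes and 1 of 9 in uptake. None of the 15 tested regulators or the 11 tested lipid droplet and lipolysis genes reached it. The medians of the lists lay on both sides of the -0.30 of all tested genes.

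**Figure D5:**
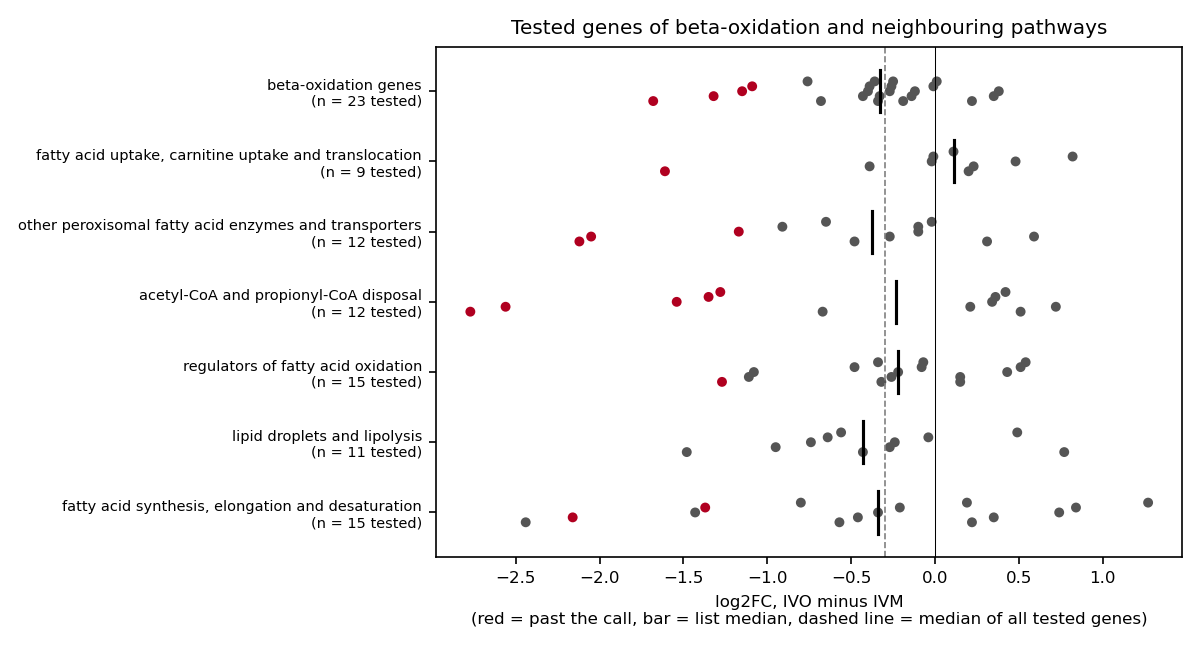
Log2FC between IVO and IVM of the tested genes of beta-oxidation and of 6 lists of neighbouring pathways, with called genes in red, the median of each list as a bar and the median of all tested genes, -0.30, as a dashed line. The list medians run from -0.43 for lipid droplets and lipolysis to 0.11 for uptake.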

How the data were processed

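The values are the FPKM the authors deposited for each gene and sample, with a length per gene. Reads had been filtered with SeqPrep and Sickle, aligned to GRCm39 with HISAT2 2.1.0 and counted with RSEM 1.3.3. The authors' group means were not used, and their DESeq2 1.24.0 test was not repeated, since FPKM are not counts. Depth was inferred from the steps of low FPKM values of 15053 genes with 1 transcript. Of the 1219 to 1562 values per library above 0 and under 5.5 fragments, 71.6% to 75.6% came out whole within 0.15 fragments. The inferred depth is therefore approximate. Two-sided tests used limma 3.58.1 (eBayes with trend) in R 4.3.3 with a pseudocount of 1, checked on simulated data. Tables were made with Python 3.11.15. Transcript features came from GRCm39, and opposite-strand overlaps from its current GENCODE annotation, which may differ from the authors' one. All 38 members were matched by symbol and Ensembl identifier.

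The members, roles and lists were chosen with earlier results of these data known. Values in every sample are given for members called or with an adjusted p under 0.05 and for the most abundant member of each role. In each neighbouring list at most the 3 called genes with the largest change are named. The values of 1 such gene are not reported here. The labels number the samples as replicates, and the paper calls them biological replicates. Same-numbered samples did not deviate together (r of -0.0618, -0.0176 and -0.107), so the numbers were not taken as pairs. The alternatives were other scalings, filters, pseudocounts and thresholds, the removal of trends with length or GC content, the replicate number as a factor, and leaving out each sample.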

Additional observations from a re-analysis of the deposited data

How the results depend on the processing

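The precision is limited by 3 pools per group and, for members under about 3 FPKM, by the number of fragments. None of the 4 called members changed direction under the 20 alternatives. Over these the adjusted p ran from 0.00454 to 0.0666 for Etfdh, from 0.00515 to 0.0582 for Acads, from 0.0108 to 0.179 for Acat1 and, over 19, from 0.0303 to 0.160 for Etfb, which the filter at 5 FPKM removes. The cause of the changes below was not tested. Percentages in the next sentences are the share of all tested genes called lower in the same fit. The number of members called lower, 4 of 23 as reported (17.9%), was 2 with median-ratio scaling (11.3%) and 2 with the same summed FPKM (11.3%). It was 1 with quantile normalization (8.40%), 2 of 37 without a filter (7.75%) and 2 to 3 without 1 sample (12.1% to 16.9%). The pseudocount of 0.1 gave 3 (17.7%), a mean FPKM of at least 5 gave 3 of 13 (22.0%) and no trend gave 3 (17.6%). Ensembl genes only (15.0%) and the length trend removed (16.7%) each gave 4. The GC trend removed, added after seeing the data, gave 3 (14.7%). No fold threshold gave 5 (21.5%). A fold of at least 1.5 also gave 5, and its share of all tested genes lies between 17.9% and 21.5%. With the replicate block the number was 2 (Acads and Etfdh, against 15.4%), with a median log2FC of the members of -0.33. With the block and the length trend removed it was also 2 (13.3%). The block with median-ratio scaling, added after seeing the data, left 0 in limma (against 6.06%). In that fit 3 members were lower at an unadjusted p under 0.05. The share of all tested genes at that p is not given, so this count cannot be set against the background. The block with the GC trend removed, likewise added, left 3 (15.0%). No member was called higher under any of these settings (0.247% to 5.83% of all tested genes were, over the fits). The median log2FC of the members, -0.33, became -0.04 with median-ratio scaling, with and without the block, and 0.15 with quantile normalization. It became -0.02 with the same summed FPKM and -0.51 with the length trend removed, with and without the block. The median of all tested genes was -0.04 with median-ratio scaling without the block and 0.17 with quantile normalization, and it is not given for the other settings.

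Members that were not called changed sign in some settings. With quantile normalization the log2FC was 0.15 for Acsl1, 0.13 for Acsl3, 0.20 for Acsl4, 0.21 for Cpt2, 0.34 for Acadm, 0.05 for Acad11, 0.36 for Hadha, 0.50 for Hadhb, 0.06 for Echs1, 0.08 for Hadh, 0.19 for Eci2, 0.40 for Etfa and 0.04 for Acox3. With the same summed FPKM it was 0.01 for Acsl4 and Cpt2, 0.14 for Acadm, 0.18 for Hadha, 0.31 for Hadhb and 0.21 for Etfa. With median-ratio scaling, with and without the block, it was 0.13 for Acadm, 0.17 for Hadha, 0.29 for Hadhb and 0.20 for Etfa. Acadl went to -0.17 with the length trend removed and to -0.07 with the GC trend removed, each with and without the block. Without 1 sample the log2FC ranged from -0.52 to 0.01 for Cpt2, from -0.13 to 0.10 for Acadl, from -0.47 to 0.19 for Hadha, from -0.06 to 0.06 for Hadhb and from -0.26 to 0.05 for Etfa. The difference in log2 ratio then ranged from -0.55 to 0.18 for Hadha to Hadhb, from -0.32 to 0.42 for Cpt1a to Cpt2, from -0.63 to 0.18 for Crat to Crot and from -0.33 to 0.28 for Acsl3 to Acsl4.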

Other observations

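Acat3, which is outside the 38 genes and was picked after its values were seen, carries the same KEGG orthology entry as Acat1 in the deposited annotation. Its FPKM values were 50.2, 45.1 and 30.8 in IVM 1 to 3 and 4.81, 12.0 and 14.5 in IVO 1 to 3, without overlap (log2FC -2.0, SE 0.40, adjusted p = 0.0128 by limma). Acat2, from the list of acetyl-CoA and propionyl-CoA disposal, was too low to be tested and did not show this fall. It had 0.51 to 0.92 FPKM in the IVM and 0.72 to 1.17 FPKM in the IVO group.

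Under median-ratio scaling, 3 genes of the neighbouring lists passed the call in the other direction, and they too were picked after their values were seen. Hsd17b12, the ketoacyl-CoA reductase of fatty acid elongation, had 34.6 to 42.0 FPKM in the IVM and 65.5 to 73.5 FPKM in the IVO group, with a log2FC of 1.16 (adjusted p = 0.00842) in that fit and 0.84 (adjusted p = 0.0144) on the deposited scale. Elovl5, an elongase of polyunsaturated fatty acids, had 26.4 to 39.2 FPKM in the IVM and 47.9 to 64.1 FPKM in the IVO group, with 1.05 (adjusted p = 0.0194) and 0.74 (adjusted p = 0.0510). Acot9, a mitochondrial acyl-CoA thioesterase, had 26.7 to 31.5 FPKM in the IVM and 42.5 to 55.7 FPKM in the IVO group, with 1.04 (adjusted p = 0.0161) and 0.72 (adjusted p = 0.0324).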
